A study of Mus musculus with 6 samples.

Results

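The 31 genes described here encode collagen chains outside types IV and VI. A gene was a member where its symbol consisted of Col, a number, the letter a and a second number, and did not begin with Col4a or Col6a. This rule used no measured value and took 31 of the 17419 genes in the table: 11 fibrillar chains, 8 FACIT chains (fibril-associated collagens with interrupted triple helices) and 12 chains of other classes. RNA had been measured in bulk in fibroblasts from the mouse enthesis, where tendon meets bone, in 3 samples labelled diseased and 3 labelled un-diseased. The diseased samples have NTS in their titles and the others UN, abbreviations that the labels leave unexplained. All samples were given as SKG mice, a strain with a Zap70 mutation that is prone to autoimmune arthritis, so both groups share that mutation. The labels used here state no age, sex or inducing agent, and are silent on whether the replicates are separate animals or cultures. The p-values therefore reflect the scatter among these 6 samples, part or all of which may be technical.

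Collagens are mostly secreted proteins with triple-stranded helices in which glycine recurs once in each triplet of amino acids, the only residue small enough to sit at the centre. Fibrillar chains have a long helix, unbroken in most of them, and pack side by side into fibrils. These fibrils carry load in tendon, where type I is the main collagen and types III and V lie in the same fibrils. FACIT chains attach to the surface of such fibrils, and the remaining classes form hexagonal networks, anchoring fibrils, transmembrane proteins or parts of the basement membrane zone. At an enthesis the tendon's type I fibrils pass into fibrocartilage, which holds the cartilage collagens II, IX, X and XI.

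The repeat that defines the family can be read in the coding sequence, since all glycine codons begin with GG. For each chain whose result or contrast matters below, 54 bases are shown from within a glycine repeat. This is the length of many exons of fibrillar collagen genes and holds 6 triplets. The reading is 5′ to 3′ on the coding strand of the GENCODE M21 transcript with the longest coding sequence (mouse build GRCm38), and capitals mark the GG of each glycine codon.
Col24a1: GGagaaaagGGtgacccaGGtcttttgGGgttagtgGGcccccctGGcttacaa
Col1a1: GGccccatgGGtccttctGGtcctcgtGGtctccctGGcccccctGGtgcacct
Col12a1: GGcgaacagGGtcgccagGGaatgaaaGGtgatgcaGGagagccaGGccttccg
Col14a1: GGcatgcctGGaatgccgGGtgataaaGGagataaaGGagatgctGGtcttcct
Col20a1: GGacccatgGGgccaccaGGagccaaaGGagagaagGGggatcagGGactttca
Col8a2: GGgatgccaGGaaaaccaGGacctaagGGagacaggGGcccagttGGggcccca
The GG recurs at every ninth base in all of them, and the bases between differ from chain to chain. The longest unbroken glycine repeat held 216 to 344 triplets in the 11 fibrillar chains, 32 to 113 in the 8 FACIT chains and 23 to 75 in the 12 others. Within the fibrillar chains, this longest repeat was shorter in Col24a1 (216 triplets) and Col27a1 (217) than in Col1a1 (338) and Col3a1 (344). Both Col24a1 and Col27a1 held a second repeat of 93 triplets further on. Summed over all repeats of 10 or more triplets, they had 327 and 329, against 355 in Col1a1 and 357 in Col3a1. Col12a1, Col14a1 and Col20a1 each had a longest repeat of 32 triplets. Glycine repeats made up 7.63% of the coding sequence of Col12a1, 13% of that of Col14a1 and 11% of that of Col20a1, against 73.3% of that of Col1a1.

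**Figure D1:**
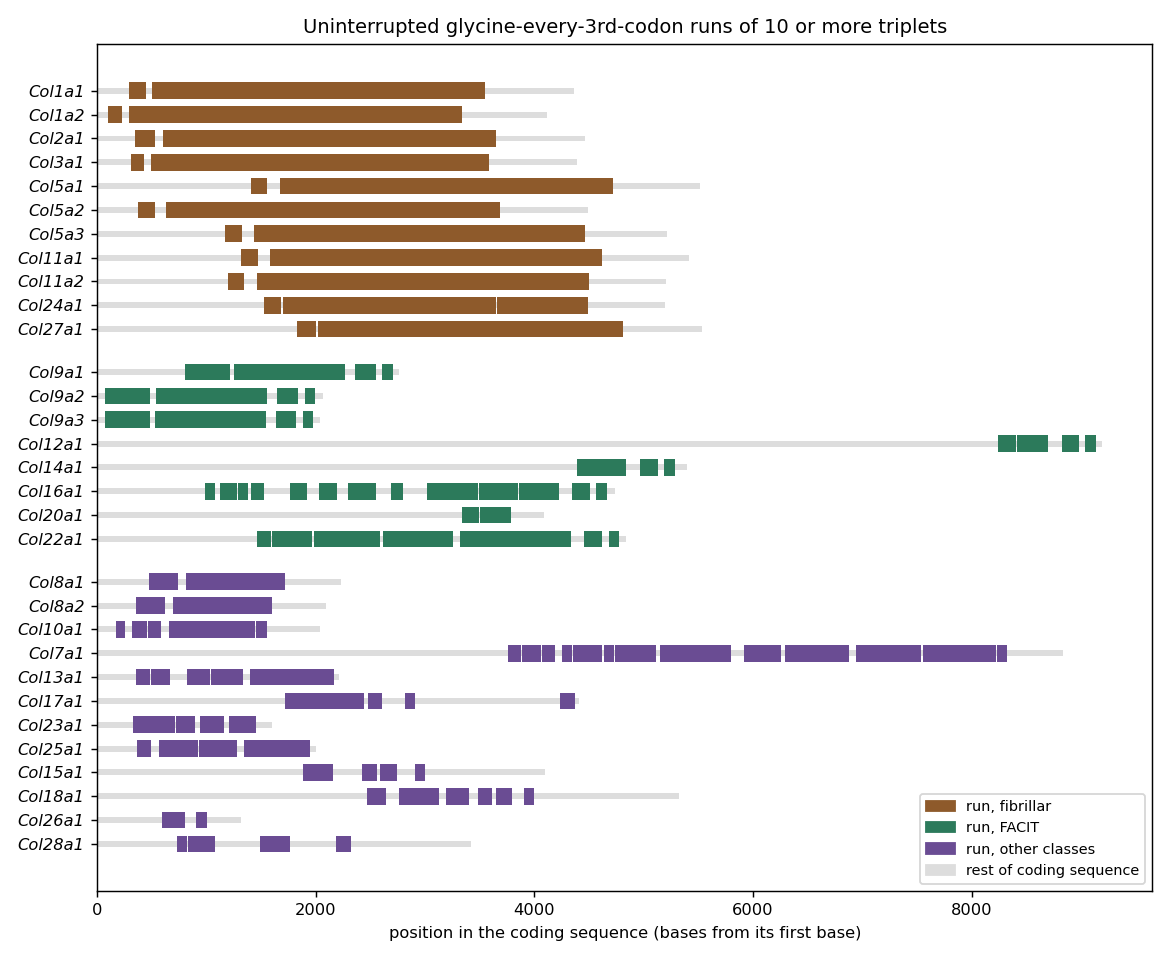
Unbroken glycine repeats of 10 or more triplets (coloured bars) along the coding sequence of each member, in bases from its first base, with members by class down the page. The longest repeat holds 216 to 344 triplets in fibrillar chains and at most 113 in the others, and neighbouring repeats may touch.

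Total estimated counts lay between 17233405 and 18290870 in diseased and between 16720605 and 17864659 in un-diseased samples. The precision this gives is that 3 counts, the limit that a count of 0 allows, were worth 0.147 to 0.188 CPM (counts scaled to a common library total with TMM), for counting error only. Summed fibroblast markers were at 42720 to 47730 CPM in diseased and 41360 to 51600 CPM in un-diseased samples, and 0 of 8 passed without the block described below and 2, Pdgfrb and Thy1, with it. Summed tenocyte markers were at 6263 to 8096 CPM in diseased and 3599 to 4229 CPM in un-diseased samples, and 2 of 7, Thbs4 and Fmod, passed as higher, or 5 of 7 with the block. Summed macrophage markers were at 183.4 to 498.1 CPM in diseased and 46.85 to 238.3 CPM in un-diseased samples. All 12 had a positive fold change, and 0 passed without and 12 passed with the replicate number as a block. This block enters as a second fit because same-numbered samples deviated together, a pairing that the labels do not state. Of the 7 endothelial markers tested, 5 had a positive fold change and 1, Erg, passed as higher, and with the block 2 were higher and 1, Tek, lower. Their sum, most of it Tek, was 48.42 to 65.88 CPM in diseased and 58.06 to 84.34 CPM in un-diseased samples. Of the 7 osteoblast markers tested, 3 had a positive fold change and 1, Phex, passed as lower, and with the block Runx2 was also higher. Their sum, most of it Runx2, was 52.48 to 62.08 CPM in diseased and 41.17 to 49.84 CPM in un-diseased samples. Epithelial, Schwann cell and muscle markers each summed to at most 23.18 CPM in any sample, and 0 of them passed, or 1 epithelial marker as lower with the block. Beside these marker counts, 1.61% of all genes tested were higher and 2.13% lower without the block. With the block 10.5% were higher and 13.3% lower, and 51.8% of all genes tested had a positive fold change without it. The part of these cell types in the collagen values was not tested. In bulk RNA, fewer cells of a type and less RNA per cell cannot be told apart.

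The comparison of diseased with un-diseased samples asks which collagen genes differ in entheseal fibroblasts with disease. Col12a1, Col24a1, Col8a1 and Col8a2 were higher in diseased samples, and Col20a1 was lower. The other 22 of the 27 members that passed the filter on low counts did not pass the test (edgeR's quasi-likelihood test, Benjamini-Hochberg adjusted p under 0.05 over 13264 genes). The 4 higher members were 14.8% of the 27, against 1.61% of all genes tested, and the 1 lower member was 3.7%, against 2.13%. With the replicate block, 13 members were higher and 1 lower, and the 13 were 48.1% of the members, against 10.5% of all genes higher and 13.3% lower in that fit. One of the 13, Col10a1, passed the filter through the diseased samples alone, and without it 12 of 26 (46.2%) were higher. Of the 27, 24 had a positive log2 fold change (diseased minus un-diseased), or 23 of 26 without Col10a1, against 51.8% of all genes tested. The median over the 27 was 0.68, and the median over all genes tested was 0.02.

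The groups did not overlap for 13 of the 27, 11 higher (10 without Col10a1) and 2 lower in diseased samples. Over all genes, 16.5% were higher and 15.4% lower without overlap. Of the 27, 17 (16 without Col10a1) were higher and 3 lower in all 3 pairs. The same count of pairs was not made over all genes, so it has no share to compare with. Diseased replicate 2 was the highest sample for 21 of the 27 members, diseased replicate 3 for 2, and an un-diseased sample for 4. The lowest sample was un-diseased replicate 1 for 10 members, and un-diseased replicates 2 and 3 for 6 each. Highest and lowest samples were not counted over all genes, so these counts too have no share to compare with. DESeq2 without the block called 12 members higher (11 without Col10a1) and 1 lower, where it called 4.79% of all genes higher and 6.65% lower. The authors' deposited table, by its q-values, also gave 12 and 1, and 3.3% of all genes higher and 4.52% lower. Of the 13 members higher with the block, Col9a2, Col18a1 and Col23a1 did not pass in DESeq2 (adjusted p 0.0575, 0.114 and 0.108), and the rest did. Without any one of diseased replicates 1, 2 and 3 or un-diseased replicates 2 and 3, edgeR called 0 members in either direction. Calls over all genes fell as well in those fits, to 2 to 39 higher and 3 to 87 lower, against 213 and 282 with all samples. Without un-diseased replicate 1, edgeR called Col11a1, Col12a1, Col8a1 and Col8a2 higher and Col20a1 lower. That fit called 354 of all genes higher and 721 lower.

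**Figure D2:**
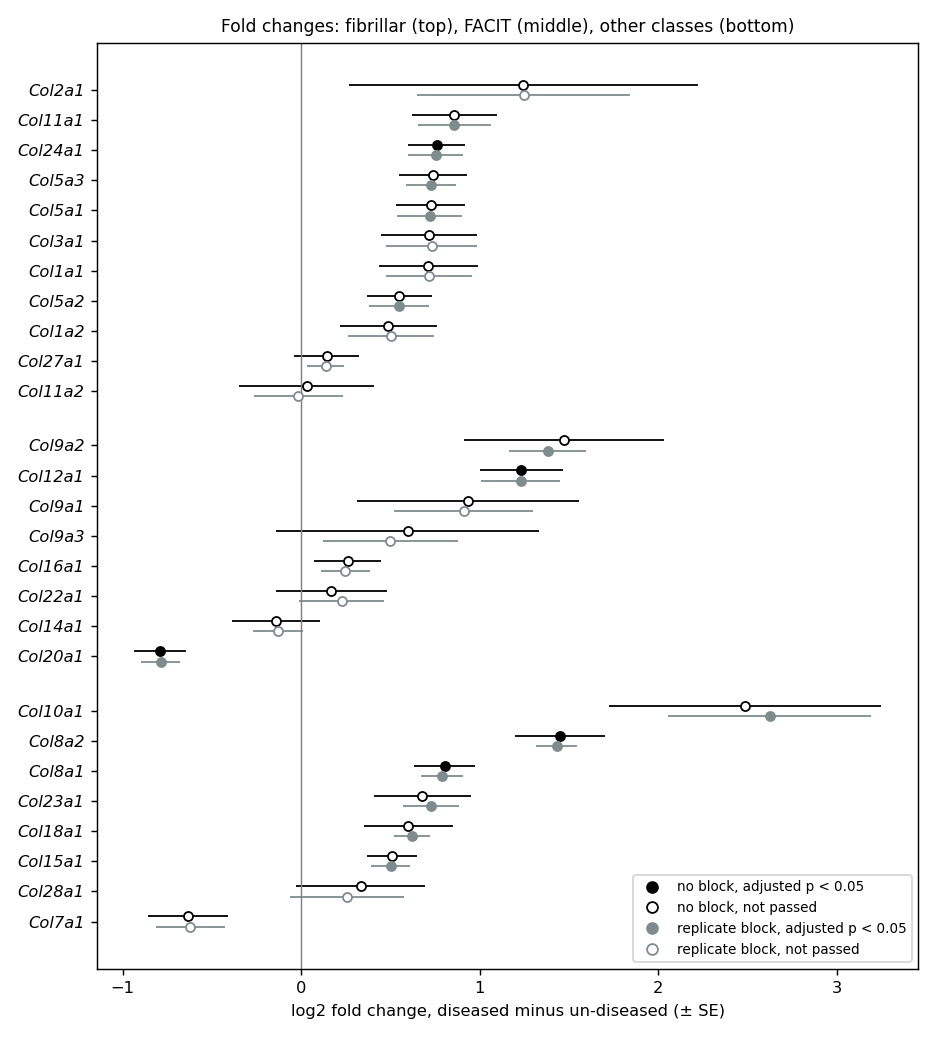
Log2 fold change (diseased minus un-diseased) of the 27 tested members by class, with points for the edgeR estimate, bars for its standard error, black without and grey with the replicate block, and filled points for those past the adjusted threshold. Of the 27 black points 24 lie right of 0, and the filled ones number 5, against 14 in grey.

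Together the members took 9.6%, 11.5% and 11.1% of all counts in diseased samples, against 6.4%, 5.65% and 7.98% in un-diseased ones. The groups did not overlap, and the mean difference was 4.06 percentage points. No test was made of this sum over members. Col1a1, Col1a2 and Col3a1 alone made up 7.99%, 9.68% and 9.32% of the counts in diseased and 5.25%, 4.56% and 6.74% in un-diseased samples. The 3 type V chains took 1.15% to 1.27% in diseased and 0.692% to 0.815% in un-diseased samples. The FACIT chains held 0.361% to 0.433% in diseased and 0.304% to 0.352% in un-diseased samples, and the other classes 0.0551% to 0.0626% and 0.0335% to 0.0374%.

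**Figure D3:**
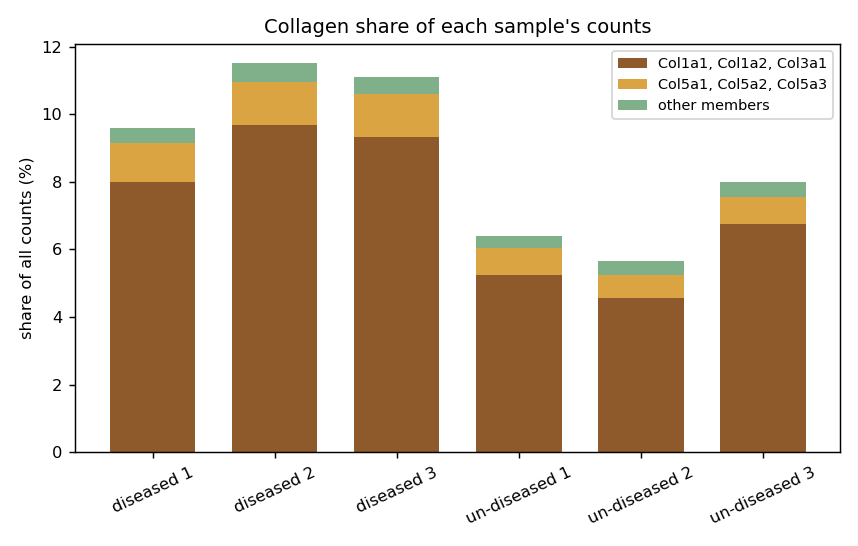
Share of each sample's counts in percent taken by the type I and III chains (bottom), the type V chains (middle) and all other members (top), with diseased samples left of un-diseased ones. The type I and III chains take 7.99% to 9.68% in the diseased and 4.56% to 6.74% in the un-diseased samples.

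Of the 11 fibrillar chains, 1 rose, 0 fell and 10 missed the threshold, with positive log2 fold changes in all 11 and a median of 0.72. With the block, 5 were called higher. Among all genes tested, 1.61% were higher without the block and 10.5% with it. Col3a1, the type III chain, was the most abundant, at 36580, 50440 and 46320 CPM in diseased samples against 23640, 22790 and 34740 CPM in un-diseased samples. The groups did not overlap, but un-diseased replicate 3 lay close to diseased replicate 1. The log2 fold change was 0.72 (SE 0.27, edgeR adjusted p = 0.144, and 0.0685 with the block), and DESeq2 gave an adjusted p of 0.0131. GENCODE places an exon of another gene on the same strand within Col3a1, so a part of its counts may belong to that gene.

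Col1a1, the α1 chain of type I, had 15970, 25590 and 21750 CPM in diseased samples and 11090, 10800 and 16770 CPM in un-diseased samples. Un-diseased replicate 3 was above diseased replicate 1, so the groups overlapped, while each diseased sample was above the un-diseased one of its number. Its log2 fold change was 0.71 (SE 0.28, edgeR adjusted p = 0.153, and 0.0638 with the block), and DESeq2 gave 0.0345. Col1a2, the α2 chain of the same molecule, had 18760, 27850 and 23890 CPM in diseased samples and 14160, 14140 and 21970 CPM in un-diseased samples. These groups overlapped in the same way. Its log2 fold change was 0.49 (SE 0.27, edgeR adjusted p = 0.275, and 0.161 with the block), and DESeq2 gave 0.158.

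Type V chains start new fibrils of type I collagen and limit their width. Col5a1 had 3792, 5236 and 4534 CPM in diseased samples against 2651, 2419 and 3137 CPM in un-diseased samples, and Col5a2 had 5160, 6419 and 6062 against 3661, 3827 and 4577 CPM. Col5a3, a less common type V chain, had 1340, 1888 and 1906 CPM in diseased samples against 919.1, 994.7 and 1168 CPM in un-diseased samples. In none of the 3 did the groups overlap, and each was higher in all 3 pairs of same-numbered samples. Log2 fold changes were 0.73 (SE 0.19) for Col5a1, 0.55 (SE 0.18) for Col5a2 and 0.74 (SE 0.19) for Col5a3. The edgeR adjusted p was 0.0791, 0.118 and 0.0738 for Col5a1, Col5a2 and Col5a3, and 0.0261, 0.0481 and 0.0105 with the block.

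Col24a1 was the fibrillar chain that passed the test. It encodes a minor fibrillar collagen known from developing bone and cornea, and lies (gene 71355) on chromosome 3 from 145292472 to 145552013 (GRCm38, plus strand). Its level was 75.08, 82 and 58 CPM in diseased samples against 37.06, 41.26 and 48.83 CPM in un-diseased samples. No overlap was seen, and pair 3 was closest, with a log2 difference of 0.25 against 1.02 in pair 1. Its log2 fold change was 0.76 (SE 0.16, edgeR adjusted p = 0.0475), and without any single sample the adjusted p lay above the threshold.

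The other fibrillar chains are those of cartilage. Col11a1, which starts type II fibrils, had 153.4, 258.1 and 191.9 CPM in diseased samples against 139.6, 107 and 86.07 CPM in un-diseased samples. There was no overlap, and the log2 fold change was 0.86 (SE 0.24, edgeR adjusted p = 0.0832, and 0.0218 with the block). Col2a1, the main cartilage collagen, had 15.06, 149.7 and 51.64 CPM in diseased samples and 23.24, 63.62 and 4.462 CPM in un-diseased samples. It varied within each group by more than the groups differed (log2 fold change 1.24, SE 0.98, edgeR adjusted p = 0.421). Without diseased replicate 2 the log2 fold change was 0.13, and without un-diseased replicate 2 it was 2.35. Col11a2 was at most 15.19 CPM in any sample, with a log2 fold change of 0.03, and Col27a1, a chain of growth cartilage, was at 118.8 to 174.7 CPM in diseased and 105 to 141.4 CPM in un-diseased samples, with 0.14.

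**Figure D4:**
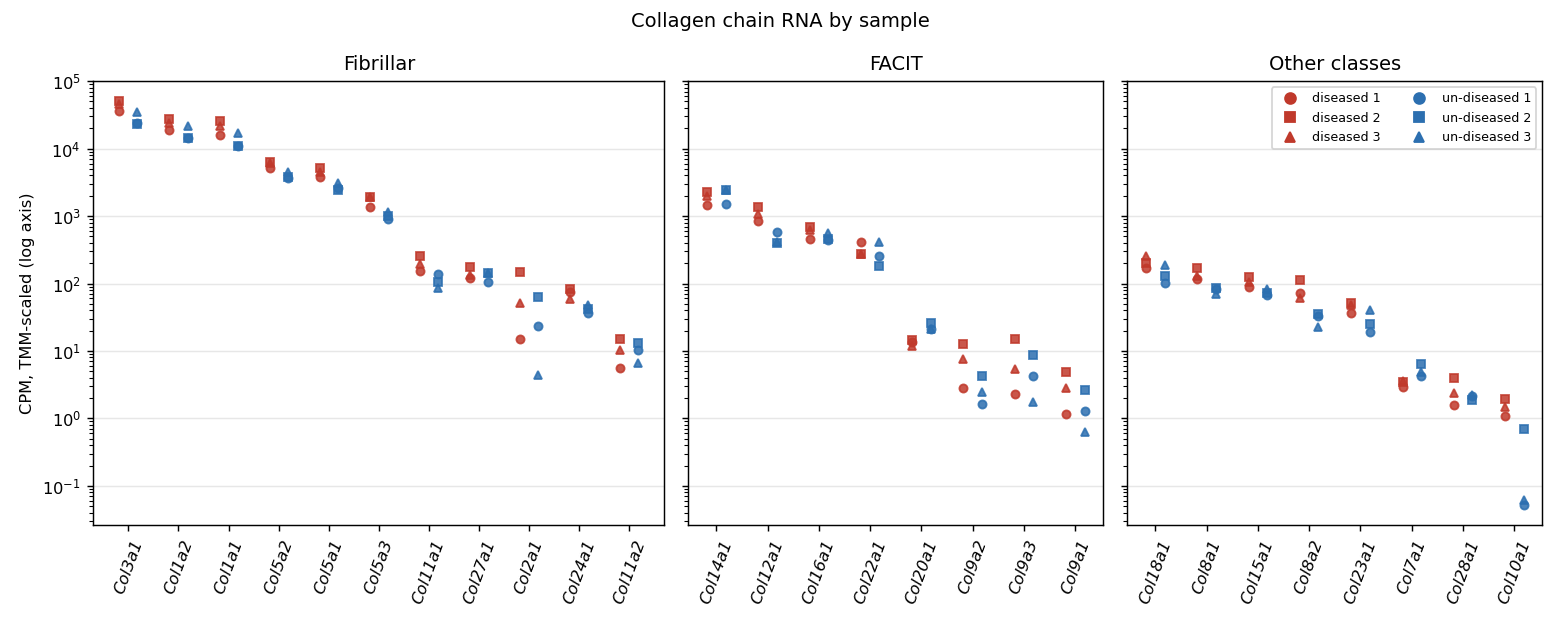
CPM of each sample on a log axis for the tested members, with diseased samples in red left of un-diseased samples in blue, and marker shape giving the replicate number (circle 1, square 2, triangle 3). Col12a1, Col8a2 and Col24a1 show no overlap of the groups, whereas Col1a1, Col1a2 and Col2a1 do overlap.

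Of the 8 FACIT chains, 1 rose and 1 fell, and the median log2 fold change was 0.43. With the block, 2 were higher and 1 lower. Among all genes tested, 1.61% were higher and 2.13% lower without the block, and 10.5% and 13.3% with it. The 1 of 8 lower with the block is near that last share. Col12a1 (gene 12816), on chromosome 9 from 79598987 to 79721141 (minus strand), encodes a long chain that binds type I fibrils and is made in tissues under mechanical load. It had 858.9, 1379 and 1056 CPM in diseased samples against 585.4, 401.6 and 414.4 CPM in un-diseased samples. All diseased samples were above all un-diseased ones, with a log2 difference of 0.55 in pair 1, 1.78 in pair 2 and 1.35 in pair 3. The log2 fold change was 1.23 (SE 0.23, edgeR adjusted p = 0.0367, and 0.00775 with the block).

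Col20a1, a little-studied FACIT chain (gene 73368) on chromosome 2 from 180983323 to 181017545 (plus strand), was the member that fell. It had 13.4, 14.76 and 11.71 CPM in diseased samples against 21.47, 26.36 and 21.13 CPM in un-diseased samples. No diseased sample reached the un-diseased range, the pairs differed by -0.68, -0.84 and -0.85, and the log2 fold change was -0.79 (SE 0.14, edgeR adjusted p = 0.0347, and 0.00358 with the block). GENCODE has an exon of another gene on its strand, so a part of these low counts may belong to that gene.

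Col14a1, a chain that binds the surface of tendon fibrils like Col12a1, was the most abundant FACIT member. It had 1475, 2270 and 2015 CPM in diseased samples and 1518, 2412 and 2419 CPM in un-diseased samples. The diseased sample was the lower one in all 3 pairs, by 0.04 to 0.26 on the log2 scale, and the groups overlapped over most of their range. Its log2 fold change was -0.14 (SE 0.25, edgeR adjusted p = 0.731). Col16a1, found near the cell surface in many tissues, was at 454 to 679.6 CPM in diseased and 441.2 to 562.3 CPM in un-diseased samples. Col22a1, a chain of the muscle-tendon junction, was at 272.5 to 414.6 CPM in diseased and 183.9 to 417.5 CPM in un-diseased samples. Neither passed, with log2 fold changes of 0.26 for Col16a1 and 0.17 for Col22a1.

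The 3 type IX chains coat cartilage fibrils and were low in every sample. Col9a2 had 2.788, 12.52 and 7.662 CPM in diseased samples and 1.616, 4.195 and 2.479 CPM in un-diseased samples. The groups overlapped, but each pair was higher in disease, by 0.79, 1.58 and 1.63. Its log2 fold change was 1.47 (SE 0.56, edgeR adjusted p = 0.147), and 1.38 (SE 0.22, edgeR adjusted p = 0.00518) with the block. Col9a1 was at 1.174 to 4.794 CPM in diseased and 0.6197 to 2.63 CPM in un-diseased samples, Col9a3 at 2.299 to 14.82 and 1.735 to 8.828 CPM. Neither passed (log2 fold change 0.94 for Col9a1 and 0.60 for Col9a3). Both were lower in diseased replicate 1 than in un-diseased replicate 1, and higher in the other two pairs. The sum of the chondrocyte markers was 77.04, 141.5 and 87.9 CPM in diseased samples and 96.89, 62.3 and 45.79 CPM in un-diseased samples. Of their 9 genes 6 were tested and 0 passed, and their part in the type II and IX values was not tested.

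Of the 12 members of other classes, 8 were tested, of which 2 rose and 0 fell, and the median log2 fold change was 0.64. With the block, 6 were higher, Col10a1 among them. Among all genes tested, 1.61% were higher without the block and 10.5% with it. The 2 that rose were the type VIII chains, short chains that form hexagonal networks under endothelia and around vessels. Col8a2 (gene 329941), on chromosome 4 from 126286794 to 126314330 (plus strand), had 73.32, 111.1 and 61.84 CPM in diseased samples against 32.63, 35.19 and 22.37 CPM in un-diseased samples. Col8a1 (gene 12837), on chromosome 16 from 57624256 to 57754737 (minus strand), had 116.3, 172.5 and 128.9 CPM in diseased samples against 83.23, 86.97 and 69.16 CPM in un-diseased samples. In neither did the groups overlap, and both were higher in all 3 pairs. The log2 fold change was 1.45 for Col8a2 (SE 0.25, edgeR adjusted p = 0.0318, and 0.000955 with the block) and 0.80 for Col8a1 (SE 0.17, edgeR adjusted p = 0.0476, and 0.00423 with the block). With RLE in place of TMM scaling the adjusted p of Col8a1 was 0.052.

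Because both type VIII chains rose, their promoters are shown, from 250 bases before to 50 after the gene start in RefSeq (GRCm38.p6), read in the direction of the gene. Capitals mark GGGCGG on either strand, the core of the GC box that Sp-family factors can bind. The first sequence is Col8a2, chr4:126286544-126286843 on the plus strand, and the second Col8a1, chr16:57754688-57754987 on the minus strand.
Col8a2: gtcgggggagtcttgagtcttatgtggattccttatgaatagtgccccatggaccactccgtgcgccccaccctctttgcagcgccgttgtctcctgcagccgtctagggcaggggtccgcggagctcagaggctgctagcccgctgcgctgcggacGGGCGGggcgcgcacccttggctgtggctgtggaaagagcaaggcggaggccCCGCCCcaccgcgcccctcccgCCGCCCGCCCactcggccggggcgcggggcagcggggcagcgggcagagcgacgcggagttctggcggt
Col8a1: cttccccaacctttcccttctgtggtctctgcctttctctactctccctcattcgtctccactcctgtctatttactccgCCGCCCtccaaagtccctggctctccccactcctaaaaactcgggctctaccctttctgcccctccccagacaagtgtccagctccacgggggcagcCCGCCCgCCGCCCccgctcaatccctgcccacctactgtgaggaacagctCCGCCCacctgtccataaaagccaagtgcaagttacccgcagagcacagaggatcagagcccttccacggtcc
Each holds 4 matches, of which the last pair in Col8a2 overlap. Of all 32851 RefSeq mouse promoters of this length, 35.7% held at least 1 match and 5.49% held 4 or more. Of the 25 promoters that matched 23 members, 14 held at least 1 and 2 held 4 or more. Other letters searched on both strands were CCAAT, in 9 of the 25 against 37.4% of all, TATAAA in 5 against 13.6%, GGAATG in 3 against 14.7%, and AACAAT in 1 against 10.7%. A match is a description of the letters and not of binding.

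Col10a1, a network collagen of hypertrophic cartilage, had counts of 22, 31 and 27 in diseased samples against 1, 11 and 1 in un-diseased samples. It passed the filter through the diseased group alone and did not pass the test (log2 fold change 2.49, SE 0.76, edgeR adjusted p = 0.104, and 0.0154 with the block). Un-diseased replicate 2 held most of the un-diseased counts. The log2 fold change was 4.54 without that sample and 1.95 without un-diseased replicate 1, so its size is uncertain. As for Col5a1, Col9a3, Col15a1 and Col22a1, GENCODE has an exon of another gene on the opposite strand, and whether the counting used strand is not given in the sources used here.

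Col15a1 and Col18a1 form the multiplexins, which lie at basement membranes. Col15a1 had 90.15, 123.6 and 103.6 CPM in diseased samples against 68.07, 73.38 and 81.61 CPM in un-diseased samples, with no overlap. Col18a1, the source of endostatin, had 168.8, 202.3 and 259.8 CPM in diseased samples and 101, 129.7 and 185.6 CPM in un-diseased samples, with overlap. The log2 fold changes were 0.51 for Col15a1 (SE 0.14, edgeR adjusted p = 0.0819, and 0.0144 with the block) and 0.60 for Col18a1 (SE 0.25, edgeR adjusted p = 0.167, and 0.00551 with the block). Among endothelial markers, Erg was at 6.259 to 7.908 CPM in diseased and 2.169 to 2.919 CPM in un-diseased samples, and Tek at 31.79 to 41.84 and 47.16 to 73.32 CPM. Their part in the values of these chains was not tested.

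Col23a1, a transmembrane collagen, had 36.54, 52.12 and 47.48 CPM in diseased samples and 19.08, 25.48 and 40.59 CPM in un-diseased samples. The groups overlapped, with diseased replicate 1 below un-diseased replicate 3 (log2 fold change 0.68, edgeR adjusted p = 0.158, and 0.0154 with the block). Col7a1, the chain of the anchoring fibrils of skin, was low, with 2.935, 3.425 and 3.561 CPM in diseased samples against 4.222, 6.387 and 4.833 CPM in un-diseased samples. All its diseased samples were below all un-diseased ones, but it did not pass (log2 fold change -0.64, SE 0.23, edgeR adjusted p = 0.13, and 0.0509 with the block). Col28a1, a chain known from peripheral nerve, was at 1.565 to 3.985 CPM in diseased and 1.878 to 2.231 CPM in un-diseased samples (log2 fold change 0.33, not past the threshold).

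The remaining 4 members were too low to test. Col13a1 had counts of 6, 6 and 10 in diseased samples and 12, 13 and 9 in un-diseased samples, and Col17a1 had 8, 11 and 6 and 4, 11 and 9. Col25a1 had 1, 3 and 2 in diseased samples and 0, 0 and 1 in un-diseased samples, and Col26a1 had 1, 0 and 1 and 4, 0 and 0. Col13a1 was lower in diseased samples without overlap in CPM, at 0.2935 to 0.5396 against 0.5577 to 0.814. Its counts did overlap, with 10 in diseased replicate 3 and 9 in un-diseased replicate 3, so the separation rests on the scaling. No test was made of any of the 4. Col19a1, a further FACIT chain, was not analysed here.

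Because chains assemble into shared fibrils, 6 chains were also set against each other as ratios of CPM to Col1a1, which do not depend on library scaling. The ratio of Col3a1 to Col1a1 was 2.29, 1.97 and 2.13 in diseased samples and 2.13, 2.11 and 2.07 in un-diseased samples, a mean log2 difference of 0.02 (exact two-sided permutation p = 0.8, 0.96 after adjustment over 6 ratios). The ratio of Col5a1 to Col1a1 was 0.205 to 0.238 in diseased and 0.187 to 0.239 in un-diseased samples (log2 difference 0.01), and that of Col5a2 was 0.251 to 0.323 and 0.273 to 0.354 (-0.17). The 3 ratios overlapped between the groups.

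Col1a2 relative to Col1a1 was 1.18, 1.09 and 1.10 in diseased samples against 1.28, 1.31 and 1.31 in un-diseased samples. Col14a1 relative to Col1a1 was 0.0924, 0.0887 and 0.0926 in diseased samples against 0.137, 0.223 and 0.144 in un-diseased samples. Both ratios were lower in all diseased samples, with log2 differences of -0.21 and -0.85, and the exact permutation p was 0.1 for each, the smallest this design allows, and 0.3 after adjustment. Col12a1 relative to Col1a1 was 0.0538, 0.0539 and 0.0485 in diseased samples and 0.0528, 0.0372 and 0.0247 in un-diseased samples, so diseased replicate 3 was below un-diseased replicate 1 (log2 difference 0.51, exact unpaired permutation p = 0.2, adjusted 0.4). Within pairs it was higher in diseased samples in all 3, by 0.03, 0.54 and 0.97 on the log2 scale. Leaving out un-diseased replicate 3 gave a difference of 0.23, and leaving out un-diseased replicate 1 gave 0.78. The FACIT chains Col12a1 and Col14a1, compared after their values were seen and so without a test, stood at a ratio of 0.582, 0.607 and 0.524 in diseased samples and 0.386, 0.166 and 0.171 in un-diseased samples.

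**Figure D5:**
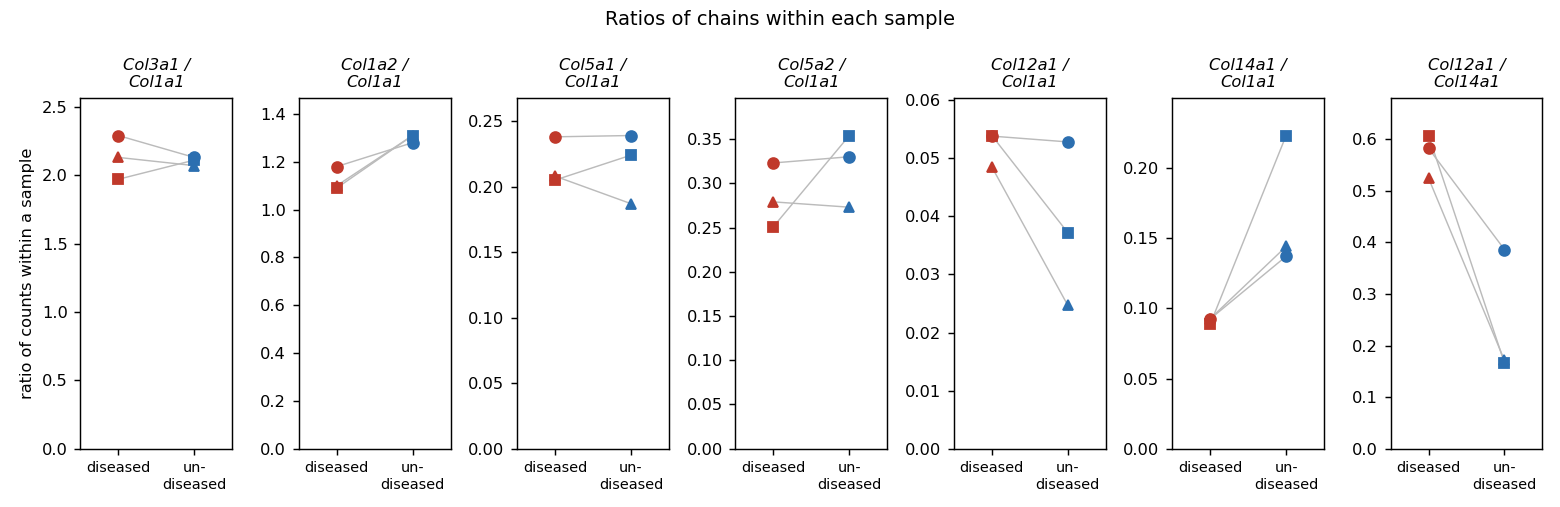
Ratio of counts of 6 chains to Col1a1, and of Col12a1 to Col14a1 (last panel), in each sample, with diseased in red on the left and un-diseased in blue on the right of each panel, marker shape for the replicate number and grey lines joining samples of the same number. The ratios of Col1a2 and Col14a1 are lower in all diseased samples, and that of Col3a1 lies between 1.97 and 2.29 throughout.

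Divided by transcript length, so that levels compare between genes, Col3a1 stood first at 7990 ± 1280 CPM per kilobase in diseased samples (SD, n = 3) against 4860 ± 1200 in un-diseased ones (SD, n = 3). Col1a2 followed at 4390 ± 852 and 3130 ± 844, and Col1a1 at 3560 ± 817 and 2170 ± 568 CPM per kilobase. The means of Col1a2 and Col1a1 in diseased samples differed by about their spread between samples, but Col1a2 was above Col1a1 within each sample. Col5a2 and Col5a1 came next, at 888 and 538 CPM per kilobase in diseased samples. The means of Col14a1 (297) and Col5a3 (280) lay within each other's spread there, with Col14a1 the higher within each diseased sample. In un-diseased samples Col14a1 (328) and Col5a1 (325 CPM per kilobase) were also within each other's spread.

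Per length, the ratio of Col1a1 to Col1a2 was 0.768, 0.829 and 0.821 in diseased samples against 0.706, 0.689 and 0.688 in un-diseased samples. The type V pair, Col5a1 to Col5a2, stood at 0.579 to 0.643 in diseased and 0.498 to 0.571 in un-diseased samples. For type VIII, Col8a1 to Col8a2 was 1.35, 1.32 and 1.77 in diseased samples against 2.16, 2.10 and 2.62 in un-diseased samples. The groups did not overlap in these 3 ratios. In a further type V ratio, Col5a3 to Col5a2, they met, at 0.281, 0.318 and 0.34 in diseased samples and 0.272, 0.281 and 0.276 in un-diseased samples. The type I ratio is the inverse, scaled by length, of the Col1a2 to Col1a1 ratio tested above (exact permutation p = 0.1, 0.3 after adjustment). The type V and type VIII ratios were not tested. The absolute size of all these ratios rests on the transcript chosen for each gene.

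Genes that act on collagen chains were described from 6 lists. For comparison with each list, 1.61% of all genes tested were higher and 2.13% lower, or 10.5% and 13.3% with the block. A positive log2 fold change was seen in 51.8% of all genes tested, and their median was 0.02. Of 21 genes of folding and export in the endoplasmic reticulum, 6 rose and 0 fell, with 19 positive log2 fold changes and a median of 0.36. With the block, 10 were higher and 1 lower. P4ha3, a prolyl hydroxylase subunit, rose by 0.83 (edgeR adjusted p = 0.0259), the collagen chaperone Serpinh1 by 1.06 (0.0278) and Colgalt1, which adds galactose to hydroxylysine, by 0.74 (0.0347) on the log2 scale. The other 3 that rose were P3h1, Plod3 and Fkbp14.

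Of 8 tested genes of procollagen processing, 0 rose and 1 fell, with a median of -0.15. That gene was Pcolce2, an enhancer of C-propeptide removal, at 80.56, 108.2 and 70.41 CPM in diseased samples against 220.8, 277.4 and 209.4 CPM in un-diseased samples (log2 fold change -1.45, edgeR adjusted p = 0.0247). The groups were far apart, whereas Pcolce, its more abundant relative, was at 928.5 to 1321 CPM in diseased and 920 to 1044 CPM in un-diseased samples and did not pass.

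Of 5 crosslinking genes, 1 rose and 0 fell (median 0.32), against 1 higher and 1 lower with the block. The one that rose was Loxl3, a lysyl oxidase, at 187.6 ± 21.4 CPM in diseased and 124 ± 4.47 CPM in un-diseased samples (mean ± SD, n = 3 each, also in what follows; edgeR adjusted p = 0.0402). Loxl4, another lysyl oxidase, was the one lower with the block, at 30.42, 54.17 and 35.67 CPM in diseased samples and 59.94, 82.27 and 53.97 CPM in un-diseased samples (edgeR adjusted p = 0.00444 with the block and 0.124 without). Of 9 fibril-binding genes, 1 rose and 0 fell (median 0.53), against 4 higher and 1 lower with the block. The gene called without the block was Fmod, a proteoglycan that binds type I fibrils, at 1200 ± 257.7 and 590.8 ± 71.8 CPM (edgeR adjusted p = 0.0392). Fmod is also one of the tenocyte markers above.

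Of 9 tested collagen receptors, 0 rose and 1 fell (median -0.08): Itga2, an integrin subunit that binds collagen, at 6.67 ± 0.702 CPM in diseased and 17.1 ± 4.48 CPM in un-diseased samples (edgeR adjusted p = 0.0272). With the block, 2 receptors fell. Of 11 genes of collagen breakdown and its inhibitors, 0 rose and 1 fell (median 0.13), against 3 higher and 1 lower with the block. Timp3, a matrix-bound inhibitor of metalloproteinases, was at 155.8 ± 47.4 CPM in diseased and 343.4 ± 57.6 CPM in un-diseased samples (edgeR adjusted p = 0.0434).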

How the data were processed

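RNA of 6 samples was extracted with TRIzol and sequenced as read pairs on a BGISEQ-500, per the labels' protocols. The authors deposited estimated counts per gene, of which 9.61% were not whole, and all were rounded before testing. HISAT2 2.0.4, RSEM 1.3.1, DESeq2 1.4.5 and GRCm38 are named, without roles, in the submitters' processing notes. The authors' deposited log2 ratios ran un-diseased over diseased and, like the deposited p-values and q-values, were used only for the count of members called. Samples were grouped by their treatment label. Genes passing filterByExpr of edgeR 4.0.16 (R 4.3.3, least count 10) were scaled with TMM and tested with edgeR's quasi-likelihood test, and p-values were adjusted by Benjamini-Hochberg over 13264 genes. Reported log2 fold changes are edgeR's, and CPM are the rounded counts divided by the TMM-scaled total. The steps were checked on simulated counts. These held no replicate effect and only the scatter left after the block, so they do not show how either fit behaves with paired samples.

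Deviations from the group means correlated between samples with the same replicate number in the labels, at 0.487, 0.578 and 0.276 for numbers 1, 2 and 3, and no sample correlated better with another number. The labels do not say that same-numbered samples belong together, so the pairing rests on these correlations alone and is not settled. The numbers are treated as pairs on that basis. The fit with the replicate number as a block is printed beside a result whose call it alters. Replicates of a group all differed beyond sampling noise. The other alternatives were RLE and upper-quartile scaling, other filters, DESeq2 1.42.0, limma-voom (limma 3.58.1) and leaving out samples. Members called without or with the block, Col1a1, Col1a2, Col3a1, Col5a1 and Col5a2 are described in full, other members by their range, and of each list up to 3 called genes with the smallest adjusted p. Positions, exons and coding sequences are from GENCODE M21 and promoters from RefSeq, both of the build named in the notes. The members and lists were chosen with earlier results of these data known.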

Additional observations from a re-analysis of the deposited data

How the results depend on the processing

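Of 16 alternatives, the count of members called higher in diseased samples, 4, moved to 13 with the replicate block, to 8 with upper-quartile scaling and to 12 with DESeq2, and was 3 with RLE scaling and 4 with limma-voom and with either other filter. Upper-quartile scaling set the median log2 fold change of all genes at 0.10, against 0.02. It called 417 of all genes higher, RLE scaling 207 and limma-voom 215, against 213 in the main fit. With the block and without replicate 1, 2 or 3 the count of members was 12, 10 and 7. Over all genes these block fits called 1013, 809 and 426 higher. Leaving out single samples gave 0 to 4 members higher and 0 to 1 lower. Over all genes those fits called 2 to 354 higher and 3 to 721 lower. The share of counts differed by 4.69 points when the 20 non-member genes with the highest mean CPM were left out of the total. All members were kept in that share. Of the 27 members 21 kept their direction in every alternative run. Col11a2, at 0.030, was -0.016 with the block, -0.063 with limma-voom, and -0.136 and -0.308 with the block and without replicate 2 or 3. Col28a1 was -0.175 with the block and without replicate 2, and Col22a1 -0.036 with the block and without replicate 1. When single samples were left out, log2 fold changes ranged from 1.954 to 4.540 for Col10a1, from 0.132 to 2.347 for Col2a1, from -0.349 to 0.332 for Col11a2, from -0.027 to 0.26 for Col27a1, from -0.358 to 1.291 for Col9a3, from -0.339 to 0.019 for Col14a1, from -0.069 to 0.547 for Col22a1 and from -0.083 to 0.605 for Col28a1. The log2 differences of the ratios to Col1a1 then ranged from -0.039 to 0.070 for Col3a1 and from -0.097 to 0.080 for Col5a1. The cause of these changes was not tested. The adjusted p of Col12a1 ranged from 9.21e-06 to 0.145 over the alternatives. Counts of at most 13, as in the 4 untested chains, limit what could be seen.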
